A study of Mus musculus with 6 samples.

Results

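ATG5 is 1 of the proteins that attach ATG8-family proteins to membrane, and the genes of this machinery were examined in haematopoietic cells from mice in which Atg5 itself had been targeted. The group held 10 genes, Atg5, Atg12, Atg16l1, Atg16l2, Atg7, Atg3, Atg10, Atg4a, Atg4b and Atg4d, of 37074 gene names on the array, and every probe carrying 1 of these names was taken whatever its signal. This gave 19 of 56605 probes, each a 60-mer. LSK cells (lineage marker-, Sca1+, cKit+), the fraction of bone marrow with haematopoietic stem cells (HSCs) and early progenitors, were sorted from C57BL/6 mice at postnatal day 6 to 8, and their total RNA was hybridised with Cy3 to 1-colour Agilent arrays. There were 3 control arrays (Atg5w/w;VaviCre+) and 3 Atg5f/f;Vav arrays (Atg5f/f;VaviCre+). Both groups thus carried the Vav-iCre transgene, which is active in blood-forming cells and their descendants, and the groups differed in the loxP-flanked Atg5 allele, so the deletion is aimed at those cells and begins before birth. The sources used here do not say how many mice gave the RNA of 1 array, so n counts arrays and every p-value measures the spread between these arrays. All arrays lay on 1 slide, with the control arrays in 1 row and the Atg5f/f;Vav arrays in the other, so row and genotype cannot be told apart, and each direction rests on the labels.

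Autophagy wraps part of the cytoplasm in a double membrane and delivers it to the lysosome, and membrane-bound ATG8 proteins (the LC3 and GABARAP families) help the membrane to grow and to hold its cargo. A pair of reactions like those of ubiquitin puts them there. In the first, ATG7 activates ATG12 and hands it to ATG10, which joins it to ATG5, and ATG16L1 then binds the ATG12–ATG5 conjugate. In the other, an ATG4 protease trims the ATG8 protein, ATG7 activates it, ATG3 takes it over, and the ATG12–ATG5–ATG16L1 complex places it on phosphatidylethanolamine in the membrane, from which ATG4 can release it again. Loss of this machinery in blood cells is known to impair HSC maintenance and the clearance of mitochondria from erythroid cells.

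Signals are given as log2 intensity relative to the 75th percentile of the same array, so that 0 is the brightness that 75% of spots do not exceed. A difference is the Atg5f/f;Vav mean minus the control mean on this log2 scale, with its standard error (SE) and a p from limma that was adjusted by the Benjamini-Hochberg method over all 32074 probes tested. A probe passed at an adjusted p under 0.05. Because probes differ in how brightly they report the same amount of RNA, brightness is not read as a ranking of genes by their amount of RNA.

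Atg5, the gene targeted, was measured by 1 probe at the far 3′ end of its mRNA, from base 2251 of the transcript (chr10:44083997-44084056 on mm9, plus strand). The first 30 of its 60 bases are printed to show where in the targeted gene's transcript the signal was read.

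Atg5 probe, bases 1 to 30: cttgctgtccacattgaatgtcaacccatc

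The log2 signal was 1.10, 0.93 and 1.06 in control and 1.46, 1.51 and 1.74 in Atg5f/f;Vav arrays. All 3 Atg5f/f;Vav arrays lay above all 3 control arrays. The difference was 0.54 (SE 0.12, 95% confidence interval 0.25 to 0.83, adjusted p = 0.0209), a signal 1.45-fold that of control. The sources used here do not name the exon that loxP sites flank, and a probe at the 3′ end would still be matched by a transcript that lacks an upstream exon. The probe therefore says nothing about whether the deletion had taken place. The adjusted p rose to 0.0727 when control replicate 1 was left out, to 0.0836 when control replicate 2 was, and to 0.0567 when dim probes were kept in the test.

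The partners of ATG5 in the complex gave no probe that passed. Atg12, which encodes the ubiquitin-like protein joined to ATG5, had log2 signals of 2.27, 2.28 and 2.35 in control and 2.29, 2.12 and 2.12 in Atg5f/f;Vav arrays. The groups overlapped, and the difference of −0.12 (SE 0.11, 95% confidence interval −0.37 to 0.13, adjusted p = 0.391) did not pass. A difference of the size found for Atg5 lies outside this interval in either direction.

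**Figure D1:**
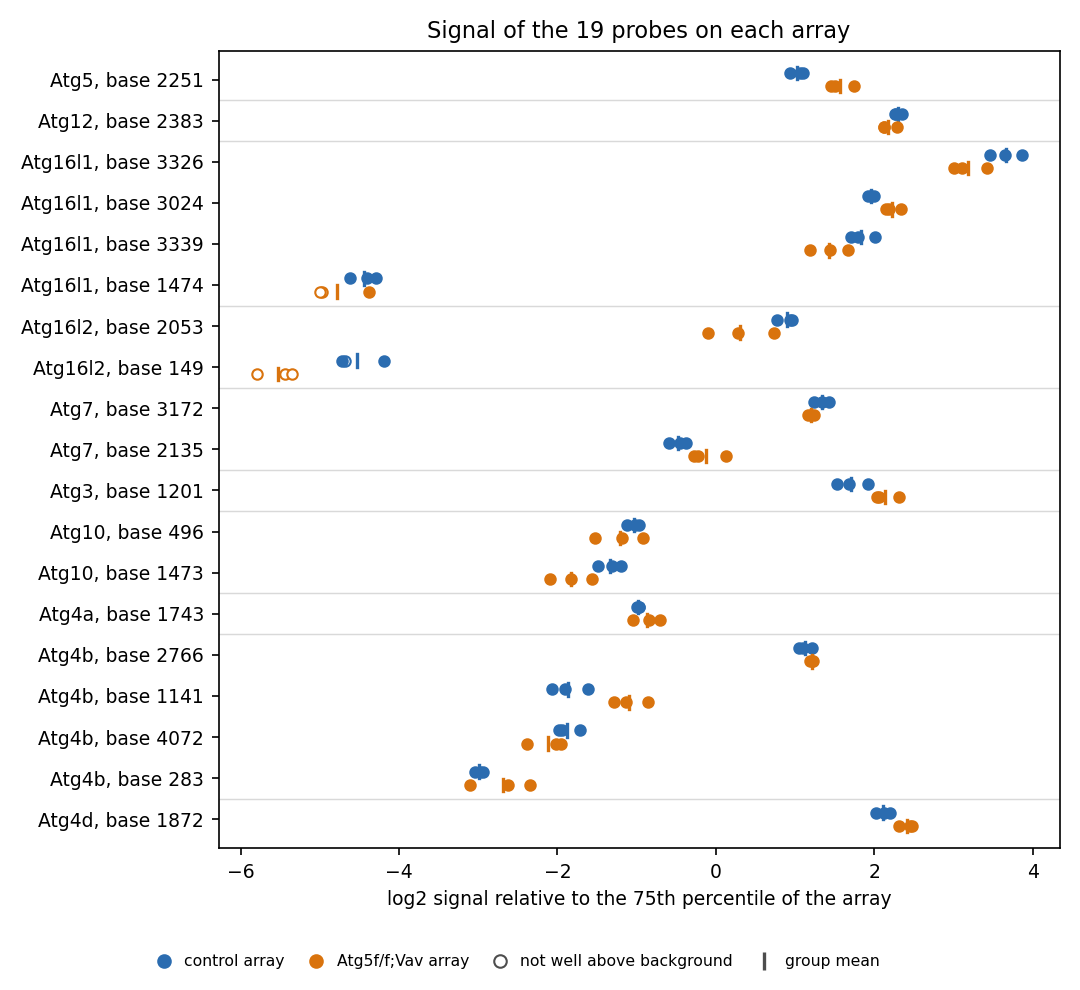
Log2 signal of each of the 19 probes on each of the 6 arrays, relative to the 75th percentile of the array, with probes labelled by gene and by the transcript base at which they start. Points are arrays (blue control, orange Atg5f/f;Vav, open where not well above background) and ticks are group means; the groups separate upwards for Atg5 and for Atg4b at base 1141, while the probes of Atg16l1 and of Atg7 separate in opposite directions within a gene.

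Atg16l1 encodes the scaffold that directs the conjugate to the membrane, and its 4 probes pointed in different directions. The probe in the 3′ part of the mRNA (base 3024, chr1:89688896-89688955 on mm9) read 1.93, 1.95 and 2.002 in control and 2.15, 2.18 and 2.33 in Atg5f/f;Vav arrays. Every Atg5f/f;Vav array exceeded every control array, but the difference of 0.26 (SE 0.11, adjusted p = 0.0924) did not pass. The brightest probe was taken from a cDNA that the array's annotation describes as having an apparent retained intron (base 3326). It read 3.86, 3.66 and 3.46 in control and 3.01, 3.43 and 3.11 in Atg5f/f;Vav arrays, the opposite order, again with no overlap and a difference of −0.47 (SE 0.16, adjusted p = 0.0584) that did not pass. A neighbouring probe from a different transcript record (base 3339) gave −0.40 (SE 0.16, adjusted p = 0.0877). These 2 probes are not independent readings, since they overlap on the genome, and the 43 bases they share are in capitals here. They are called intron probes for short, after the annotation of the cDNA of the first. Whether either lies in an intron was not computed.

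Atg16l1 intron probe 1 (chr1:89685064-89685123, mm9, plus strand): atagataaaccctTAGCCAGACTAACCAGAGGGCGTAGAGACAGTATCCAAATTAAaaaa
Atg16l1 intron probe 2 (chr1:89685077-89685136, mm9, plus strand): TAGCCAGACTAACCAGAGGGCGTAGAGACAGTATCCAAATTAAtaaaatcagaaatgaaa

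A run of 20 bases of the first of these probes also occurred in 2 of 32851 RefSeq promoter windows of mouse genes, and a run of the second in 1, whereas no such run of any other Atg probe examined here did. No probe of another gene on the array shared 25 bases with any of the 19 probes. The fourth Atg16l1 probe (base 1474 of a further transcript) was dim, well above background on 3 of 3 control and 1 of 3 Atg5f/f;Vav arrays, and gave a difference of −0.35 (SE 0.20, adjusted p = 0.201). It reached the test through the control arrays, and its size rests in part on values not above background, so no conclusion is drawn from it.

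Atg16l2, the paralogue of Atg16l1, whose protein also binds ATG5, pointed downwards. Its probe at base 2053 (chr7:108438181-108438240 on mm9, minus strand) read 0.96, 0.78 and 0.94 in control and 0.73, 0.28 and −0.09 in Atg5f/f;Vav arrays. The Atg5f/f;Vav arrays were all below the control arrays but spread over a wider range, and the difference of −0.59 (SE 0.21, adjusted p = 0.0670) did not pass. The other Atg16l2 probe spans an exon junction near the 5′ end (base 149) and was well above background on 2 of 3 control and 0 of 3 Atg5f/f;Vav arrays. It was too dim to be tested. Its measured means were −4.53 and −5.53. The detection limit was taken as the lowest signal of any probe well above background on the same array. With the Atg5f/f;Vav values set at that limit, the control mean was 1.05-fold higher. The control mean includes an array not well above background, so no bound is drawn from it.

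Atg7 encodes the E1-like enzyme that both reactions share. Its probe at base 3172 (chr6:114809893-114809952 on mm9) read 1.34, 1.25 and 1.43 in control and 1.20, 1.24 and 1.17 in Atg5f/f;Vav arrays. The Atg5f/f;Vav arrays were lower without overlap, by 0.14 on average (difference −0.14, SE 0.10, adjusted p = 0.332). The probe at base 2135 spans an exon junction, since its 60 bases cover 81971 bases of the genome, and it pointed the other way.

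Atg7 junction probe (chr6:114727096-114809066, mm9, plus strand, exon parts joined): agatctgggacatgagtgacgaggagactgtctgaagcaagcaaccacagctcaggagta

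It read −0.45, −0.59 and −0.38 in control and −0.22, −0.27 and 0.13 in Atg5f/f;Vav arrays, with no overlap and a difference of 0.35 (SE 0.14, adjusted p = 0.0935). Neither Atg7 probe passed.

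The E2-like enzymes of the pair of reactions differed in direction. Atg3, which encodes the enzyme that carries ATG8 proteins, read 1.68, 1.53 and 1.92 in control and 2.06, 2.03 and 2.31 in Atg5f/f;Vav arrays (base 1201, chr16:45187840-45187899 on mm9). All Atg5f/f;Vav arrays were higher, and the difference of 0.42 (SE 0.15, adjusted p = 0.0596) did not pass. Atg10 encodes the enzyme that carries ATG12 to ATG5, and its 2 probes were both lower on average. The probe at base 1473 (chr13:91075030-91075089 on mm9, minus strand) read −1.49, −1.20 and −1.31 in control and −1.56, −1.83 and −2.09 in Atg5f/f;Vav arrays, without overlap, a difference of −0.50 (SE 0.16, adjusted p = 0.0533). The probe at base 496, which joins exons that lie far apart in the gene and so covers 85239 bases of the genome, read −0.97, −1.12 and −1.02 in control and −0.92, −1.18 and −1.53 in Atg5f/f;Vav arrays. The groups overlapped there, and the difference was −0.17 (SE 0.17, adjusted p = 0.440).

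Atg10 junction probe (chr13:91076938-91162176, mm9, minus strand, exon parts joined): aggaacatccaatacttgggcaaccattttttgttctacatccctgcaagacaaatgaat

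Of the 19 probes, that of Atg5 and 1 of Atg4b passed. ATG4B is the member with the broadest activity on ATG8 proteins. Its probe at base 1141 (chr1:95684284-95684343 on mm9, plus strand) is shown because it differs from the other 3 probes of the gene.

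Atg4b probe at base 1141: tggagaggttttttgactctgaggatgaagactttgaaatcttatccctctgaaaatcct

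It read −2.07, −1.91 and −1.62 in control and −1.28, −1.13 and −0.86 in Atg5f/f;Vav arrays, well above background on all 6 and without overlap. The difference was 0.77 (SE 0.17, 95% confidence interval 0.38 to 1.17, adjusted p = 0.0192), a signal 1.71-fold that of control. The brightest Atg4b probe (base 2766) read 1.05, 1.10 and 1.22 in control and 1.23, 1.22 and 1.19 in Atg5f/f;Vav arrays, which overlap, with a difference of 0.09 (SE 0.10, 95% confidence interval −0.15 to 0.34, adjusted p = 0.508). It was −0.023 with quantile normalisation. The probes at base 4072 and at base 283, the latter across an exon junction, gave −0.24 (SE 0.15, adjusted p = 0.250) and 0.30 (SE 0.20, adjusted p = 0.260). Thus 1 of 4 Atg4b probes passed, and its adjusted p was 0.0743 when control replicate 1 was left out and 0.0773 when control replicate 2 was.

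Atg4d, for a further protease of the family, read 2.20, 2.02 and 2.13 in control and 2.32, 2.45 and 2.48 in Atg5f/f;Vav arrays. The Atg5f/f;Vav arrays were higher without overlap, by 0.30 (SE 0.11, adjusted p = 0.0715). Atg4a, the family member on chromosome X, read −0.970, −0.976 and −0.999 in control and −0.85, −1.05 and −0.70 in Atg5f/f;Vav arrays. These overlapped, and the difference was 0.12 (SE 0.12, adjusted p = 0.483). Scaling on probes detected on all arrays, which lowers the difference of every probe alike (median −0.157), puts it at −0.042 and that of the brightest Atg4b probe at −0.066.

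**Figure D2:**
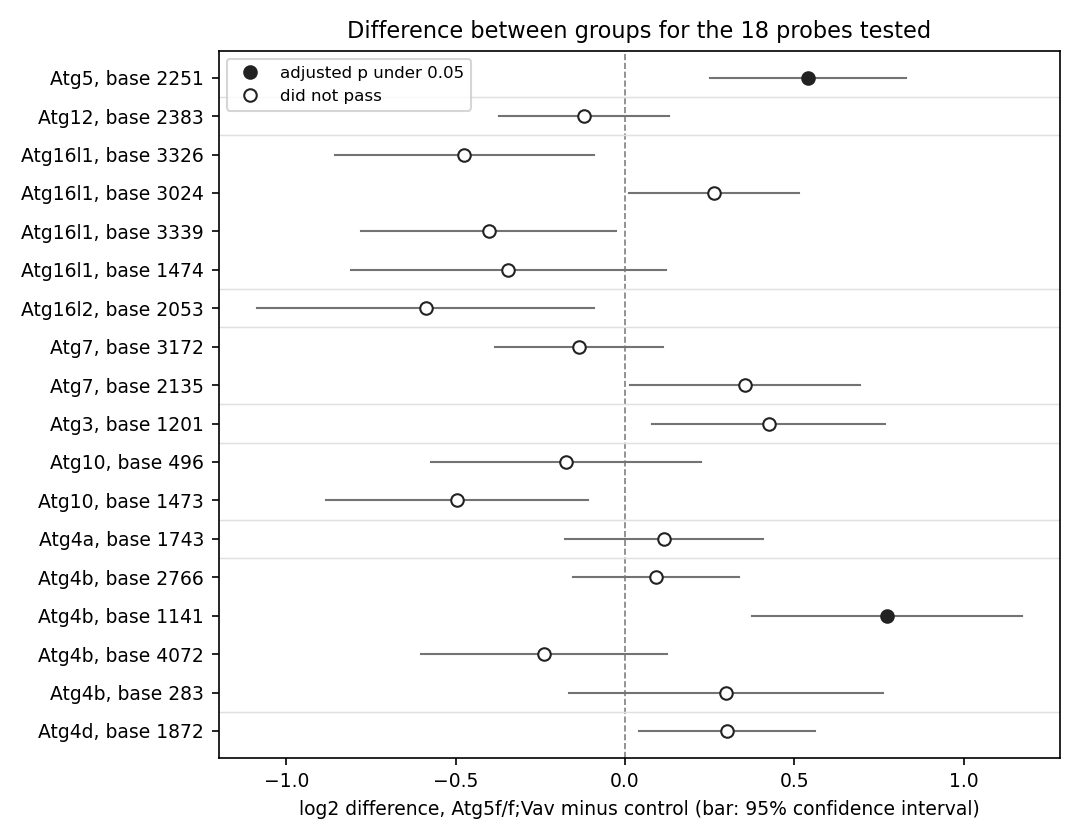
Log2 difference between Atg5f/f;Vav and control arrays for the 18 probes tested, with 95% confidence intervals from limma. Filled points passed an adjusted p of 0.05, which only Atg5 (0.54) and Atg4b at base 1141 (0.77) did, and differences of both signs occur within Atg16l1, Atg7 and Atg4b.

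Counted over the group, 18 of the 19 probes could be tested, and 2 of them (11.1%) passed, both higher in Atg5f/f;Vav arrays. On the whole array 11024 of 32074 probes (34.4%) passed, 17.3% higher and 17.1% lower. This order depends on the processing, since 7 of the 18 (38.9%) passed with normexp background correction, beside 35.9% of all probes, and 7 with an intensity trend in limma, beside 38.0%. At an unadjusted p under 0.05 the share was 55.6% of these probes, 6 higher and 4 lower, beside 48.3% of all probes (22.7% higher and 25.6% lower). Control and Atg5f/f;Vav arrays were fully separated for 11 of the 18 (61.1%), 6 upwards and 5 downwards, beside 55.4% of all probes (27.1% upwards and 28.3% downwards). The median size of the difference, regardless of sign, was 0.32 for these 18 probes and 0.36 for all probes, with median SEs of 0.15 for both. For the 10 genes, each by its brightest probe, the median difference was −0.015, beside −0.032 over all 20778 genes. With the tested probes of a gene averaged, the median of the 10 genes was 0.11. With the 75th percentile taken over probes detected on all arrays, the median of all genes moved to −0.19 and that of the 10 genes to −0.17. Then 2 probes of the group passed as higher and 4 as lower. On the whole array 3889 were higher and 8744 lower, in place of 5540 and 5484. Without control replicate 1 or 2, no probe of the group passed, and on the whole array 330 or 251 did. With Atg5f/f;Vav replicate 1 left out, 5 passed (27.8%), 3 higher and 2 lower, beside 32.1% of all probes (15.5% higher and 16.7% lower).

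Where a gene had several tested probes, the difference between 2 of its probes was formed within each array, which removes anything that scales the whole array. Of 14 such pairs, several of which share a probe, 9 (64.3%) separated the groups completely, beside 38.3% of the 17630 pairs of tested probes of the same gene on the whole array. Without the pairs that hold the dim Atg16l1 probe it was 8 of 11. In an exact permutation test (2-sided) complete separation amounts to p = 0.1, below which 3 arrays against 3 cannot go, and to p = 0.156 after adjustment over the 14 pairs. For Atg4b the probe at base 1141 minus that at base 4072 was −0.09, −0.19 and 0.33 in control and 0.73, 0.83 and 1.53 in Atg5f/f;Vav arrays. This was the widest shift of the 14, 1.01 between the group means. For Atg16l1 the brightest intron probe minus the 3′ mRNA probe was 1.93, 1.70 and 1.46 in control and 0.86, 1.24 and 0.78 in Atg5f/f;Vav arrays, a shift of −0.74. For Atg7 the probe at base 3172 minus the junction probe was 1.79, 1.84 and 1.81 in control and 1.42, 1.51 and 1.04 in Atg5f/f;Vav arrays, a shift of −0.49. No pair could pass 0.05 in this test, whatever its size. Which transcript forms the probes of a gene match was not tested.

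Related genes were compared in the same way, each by its brightest probe, and then by every other combination of their tested probes, a choice made after the values were seen. Atg3 minus Atg10 was 2.64, 2.66 and 2.94 in control and 2.98, 3.21 and 3.84 in Atg5f/f;Vav arrays. The groups separated, with a shift of 0.60 and an exact permutation p of 0.1 (0.333 after adjustment over 5 pairs), and with the other Atg10 probe they separated by 0.92. The shift of 0.60 was 0.35 without Atg5f/f;Vav replicate 3 and 0.33 with quantile normalisation. Atg16l1 minus Atg16l2 shifted by 0.11 (exact permutation p = 0.6), Atg4a minus Atg4b by 0.024 (exact p = 1), Atg4a minus Atg4d by −0.19 and Atg4b minus Atg4d by −0.21 (exact permutation p = 0.2 each). The first has no settled direction, since it was −0.13 with quantile normalisation, −0.010 without control replicate 3, −0.021 without Atg5f/f;Vav replicate 2, −0.049 without Atg5f/f;Vav replicate 3 and 0.41 without Atg5f/f;Vav replicate 1. Atg4a minus Atg4b likewise ran from −0.070 to 0.12 with 1 array left out. Atg4a minus Atg4d was −0.076 without Atg5f/f;Vav replicate 2 and 0.097 with quantile normalisation. Apart from Atg4a minus Atg4d, with 1 probe each, these values depend on the probe chosen. With the 3′ mRNA probe of Atg16l1 in place of the intron probe, Atg16l1 minus Atg16l2 was 0.97, 1.18 and 1.06 in control and 1.42, 1.91 and 2.43 in Atg5f/f;Vav arrays, a complete separation by 0.85. Over the 4 probes of Atg4b, the shift ran from −0.66 to 0.35 for Atg4a minus Atg4b and from −0.54 to 0.47 for Atg4b minus Atg4d. None of these pairs could have passed 0.05 in the exact test.

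The rest of the autophagy pathway was examined with lists of 53 further genes, of which 51 were tested. Of these, 10 were higher and 8 lower in Atg5f/f;Vav arrays, 35.3% in all, beside 34.1% of all genes (18.7% higher and 15.3% lower), and their median difference was −0.041, beside −0.032 over all genes. With quantile normalisation it was −0.17, beside −0.018. These counts take each gene by its brightest probe. Of the genes that did not pass by it, 11 had another probe that did, more often as lower than as higher. Those higher by another probe, chosen after its value was seen, were Atg2b (difference 0.66, adjusted p = 0.0421), Sqstm1 (0.46, adjusted p = 0.0358) and Tax1bp1 (0.44, adjusted p = 0.0378). The rest were lower. Sqstm1, which encodes p62, differed by 0.17 by its brightest probe (adjusted p = 0.274 in limma). No gene that passed had another probe passing in the opposite direction, though other probes of some did not pass. By their brightest probes, none of 6 genes for ATG8 proteins and the remaining protease Atg4c passed in limma, and none had an unadjusted p under 0.05. Their differences ran from −0.27 for Atg4c to 0.21 for Gabarap, with Map1lc3b, which encodes LC3B, at 0.14 (SE 0.10, adjusted p = 0.280). Another probe of Atg4c gave −0.64 (adjusted p = 0.0166), chosen here after its value was seen.

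Upstream of conjugation, Rb1cc1, which encodes the FIP200 scaffold of the ULK kinase complex and binds ATG16L1, fell by 0.52 (difference −0.52, SE 0.13, adjusted p = 0.0255), the only 1 of 5 initiation genes to pass by its brightest probe. By another probe, chosen after its value was seen, Ulk1 (difference −0.81, adjusted p = 0.0307) and Ulk2 (difference −0.37, adjusted p = 0.0397), for the kinases of the complex, passed too. In the lipid kinase complex, whose product recruits WIPI2 and through it ATG16L1, 4 of 7 genes were higher and 1 lower. Nrbf2, Pik3c3 and Becn1, for a stabilising subunit, the catalytic subunit and Beclin 1, rose by 0.66, 0.49 and 0.48. Atg14, for the subunit that sends the complex to autophagosomes, differed by −0.44. These counts are by brightest probes. By another probe, also chosen after its value was seen, Pik3r4 (difference −0.69, adjusted p = 0.0146) and Uvrag (difference −0.46, adjusted p = 0.0469) passed as lower. Among genes for ATG9, ATG2 and WIPI proteins, 2 of 10 were higher (Tmem41b by 0.42 and Vmp1 by 0.36, both for lipid scramblases of the endoplasmic reticulum) and 2 lower. The latter were Atg9a, for the scramblase of the growing membrane (difference −0.88, SE 0.10, adjusted p = 0.00888), and Wipi2 (difference −0.40, SE 0.11, adjusted p = 0.0322). The other Wipi2 probes gave 0.011 and −0.15 (adjusted p = 0.944 and 0.352), and the other Tmem41b probe gave 0.12 (adjusted p = 0.424). None of these passed, whereas the other Vmp1 probe did (difference 0.43, adjusted p = 0.0313).

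Among the autophagy genes listed, the differences over 1 on the log2 scale lay outside the conjugation genes. Among 6 partners of the ATG16L1 complex, Irgm1, an interferon-inducible GTPase, read 1.69, 1.72 and 1.64 in control and 3.60, 3.69 and 4.44 in Atg5f/f;Vav arrays. The groups were far apart, with a difference of 2.23 (SE 0.23, adjusted p = 0.00692), and Irgm1 passed with each array left out. Tecpr1, which encodes a binding partner of ATG5 on lysosomes, differed by −0.76 (adjusted p = 0.0486). Of 9 cargo receptors, Optn, which encodes optineurin, rose by 2.80 (SE 0.43, adjusted p = 0.0145) and Calcoco1 differed by −1.05 (adjusted p = 0.0215). Of 8 tested regulators of autophagy genes, Tfe3, a relative of TFEB, and E2f1 rose by 0.95 and 0.46, while Foxo1 and Foxo3 differed by −0.63 and −0.57. The other probes of Foxo1 (difference −0.39, adjusted p = 0.111) and Calcoco1 (difference −0.67, adjusted p = 0.0985) did not pass. Those of Irgm1, Optn and Foxo3 did, in the same direction as the brightest. Foxo4 was too dim to be tested, and Rubcn was not named among the probes. Without control replicate 1 or 2, 1 of the 51 genes passed, Irgm1, beside 202 or 162 of all 20778 genes. Without control replicate 3 it was 9, beside 5306 of all genes. Without Atg5f/f;Vav replicate 1, 2 or 3 it was 16, 10 or 14, beside 6769, 4921 or 6132. Of the genes named here, Rb1cc1, Atg9a, Optn, Tfe3 and Foxo3 passed in 4 of the 6 fits that left out an array, Nrbf2, Calcoco1 and E2f1 in 3, Becn1, Atg14, Wipi2, Tecpr1 and Foxo1 in 2, Pik3c3 and Tmem41b in 1 and Vmp1 in 0. The difference of Tecpr1 was −0.48 without Atg5f/f;Vav replicate 3.

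**Figure D3:**
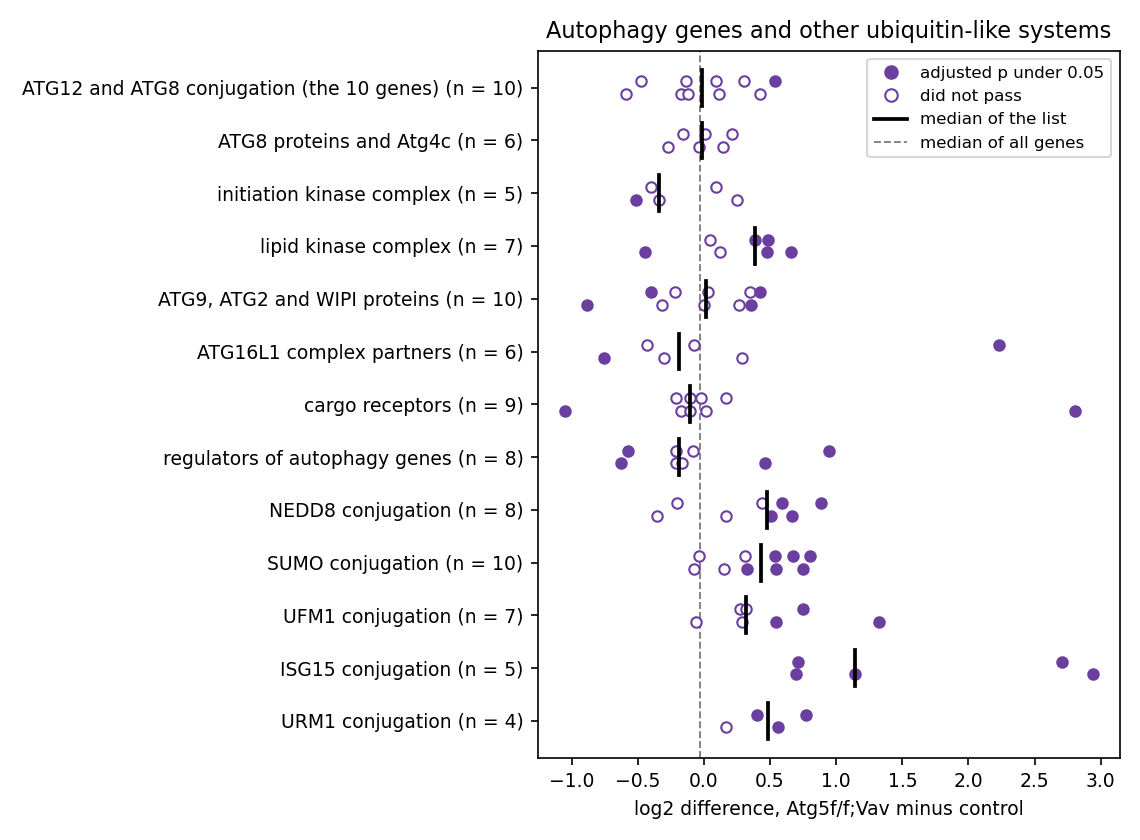
Log2 difference of each gene, by its brightest probe, for the 10 conjugation genes, 7 further autophagy lists and 5 other ubiquitin-like systems. Filled points passed an adjusted p of 0.05, black ticks are list medians and the dashed line is the median of all genes (−0.032); the conjugation genes and the ATG8 proteins lie around that line, and the 5 other ubiquitin-like systems have medians of 0.32 to 1.15.

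ATG8 and ATG12 are 2 of several ubiquitin-like proteins that cells attach through E1-like and E2-like enzymes, and genes of 5 other systems were read beside them. Of their 34 genes, 21 were higher in Atg5f/f;Vav arrays and 0 lower (61.8%), beside 34.1% of all genes, and the median difference was 0.54. It was 0.38 with scaling on detected probes and 0.28 with quantile normalisation. Of the genes that did not pass by their brightest probe, 4 had another that did, not all in the same direction. Some genes that passed had another probe that did not, such as Urm1 (difference −0.041, adjusted p = 0.881) and Ufsp2 (difference −0.15, adjusted p = 0.372). For others, such as Uba2 (difference 0.83, adjusted p = 0.0195), the other probe passed too. All 5 genes of ISG15 conjugation were higher, a system whose genes interferon induces. Isg15 itself read 1.39, 2.06 and 1.52 in control and 4.03, 4.33 and 5.44 in Atg5f/f;Vav arrays, a difference of 2.94 (SE 0.37, adjusted p = 0.0112). Usp18, for the protease that removes ISG15, rose by 2.71 (adjusted p = 0.00805) and Ube2l6, for its E2, by 1.15.

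For SUMO, which modifies mainly nuclear proteins, 6 of 10 genes were higher, with Sumo3, Sae1 and Uba2 (the last 2 for the subunits of its E1) at 0.81, 0.75 and 0.67. For NEDD8, the activator of cullin ubiquitin ligases, 4 of 8 were higher, led by the E2 genes Ube2m (0.88, adjusted p = 0.0124) and Ube2f (0.66), with Nedd8 at 0.59. For UFM1, which marks ribosomes at the endoplasmic reticulum, 3 of 7 were higher, the proteases Ufsp1 (1.32) and Ufsp2 (0.55) and Ufm1 itself (0.75). For URM1, which also donates sulphur to tRNA, 3 of 4 were higher, Mocs3 (0.77), Ctu2 (0.56) and Urm1 (0.40). Without control replicate 1, 1 of the 34 genes passed, and without control replicate 2, 2 did, beside 202 and 162 of all genes. Usp18 was among those that passed with each array left out. In the fit lacking control replicate 3, 17 were higher and 0 lower, beside 3211 and 2095 of all genes. Without Atg5f/f;Vav replicate 1, 2 or 3, 20, 19 or 19 were higher, beside 3481, 2645 or 3164 of all genes. In the same order 1, 0 or 0 were lower, beside 3288, 2276 or 2968. Of the genes named here, Urm1 passed in 1 and Ufsp1 in 3 of the 6 fits that left out an array. Whether the conjugation genes of autophagy differ from these systems as a group was not tested.

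The 2 probes that passed were followed through 16 other settings, 6 of which left out an array. Atg5 stayed higher in all of them, by 0.38 to 0.60, and passed in 12. Atg4b at base 1141 stayed higher by 0.59 to 0.91 and passed in 12. In both cases the settings that lost the call were the same 4, without control replicate 1, without control replicate 2, with no filter on dim probes, and the methods' t-test after adjustment. Other probes of the group passed in some of the 16 settings and not as reported. The brightest Atg16l1 probe passed as lower in 6 of them (lowest adjusted p 0.0301 in limma), Atg10 at base 1473 as lower in 5 (0.0295), Atg3 as higher in 5 (0.0347) and Atg16l2 at base 2053 as lower in 4 (0.0225). Over all 16 settings their highest adjusted p values were 0.187, 0.164, 0.185 and 0.170. Atg4d and the Atg16l1 probe at base 3339 passed in 2 settings each, and Atg4b at base 283 and Atg16l1 at base 1474 in 1 each. For the last this was without Atg5f/f;Vav replicate 3, where its remaining Atg5f/f;Vav values were not well above background.

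**Figure D4:**
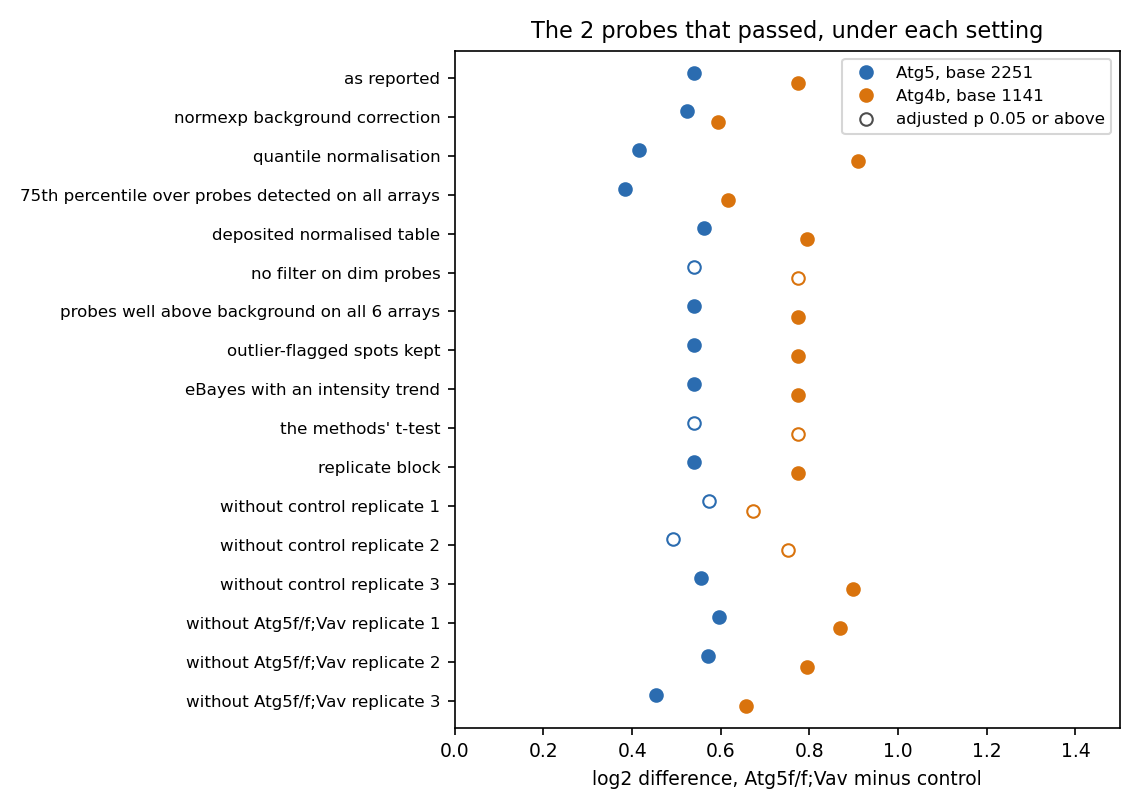
Log2 difference of the Atg5 probe (blue) and of the Atg4b probe at base 1141 (orange) as reported and under each of the 16 other settings, with open points where the adjusted p was 0.05 or above. All differences lie above 0, between 0.38 and 0.60 for Atg5 and between 0.59 and 0.91 for Atg4b, and the same 4 settings leave both points open.

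Promoter sequence was available for 8 of the 10 genes in RefSeq (GRCm38.p6, 250 bases before to 50 bases after the gene start), with Atg12 and Atg16l1 unmatched. The letters CACGTG, the E-box that TFEB and TFE3 bind, read the same on both strands and occurred in 7.15% of 32851 promoter windows. They were present in 3 of the 9 windows of these 8 genes, those of Atg5, Atg7 and Atg3. They are in capitals here because Tfe3 was among the genes that rose, and a part of TFE3 in the differences was not tested. Tfeb itself did not pass (difference −0.21, adjusted p = 0.225 in limma). Their relative Mitf did not pass by its brightest probe (difference −0.17, adjusted p = 0.489), and 3 other probes of it passed as lower.

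Atg5 (chr10:44268313-44268342, GRCm38.p6, plus strand): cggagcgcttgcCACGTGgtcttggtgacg
Atg7 (chr6:114670952-114670981, GRCm38.p6, plus strand): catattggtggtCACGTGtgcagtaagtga
Atg3, first match (chr16:45158723-45158752, GRCm38.p6, plus strand): gcctccttttgtCACGTGtcctgggagagt
Atg3, other match (chr16:45158746-45158775, GRCm38.p6, plus strand): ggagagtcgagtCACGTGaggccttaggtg

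Of these 3 genes, Atg5 passed, Atg3 had a difference of 0.42 that did not pass, and the Atg7 probes gave −0.14 and 0.35. The matches describe the windows, and binding was not measured. The core TGACNNNGC of the antioxidant response element, searched on both strands, occurred in 12.4% of windows, and the FoxO motif GTAAACA, also on both strands, in 3.65%. Neither occurred in the windows of the 8 genes.

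The genes whose signal followed that of Atg5 most closely over the 6 arrays were sought among 18381 genes well above background on all arrays. Likeness was the root-mean-square difference between log2 signals, each centred on its own mean over the arrays. The closest were Ptger4 (0.016), an unnamed noncoding probe (0.020), Upf1 (0.025), Pcmt1 (0.026) and Mettl5 (0.027). Ptger4, for a prostaglandin receptor, read 0.46, 0.27 and 0.42 in control and 0.83, 0.87 and 1.13 in Atg5f/f;Vav arrays, the same order of arrays within control as Atg5. Among the conjugation genes Atg3 came nearest (0.11, rank 1522), followed by Atg4d (0.13, rank 2555), and Atg16l2 was farthest (0.65, rank 16332). With 6 arrays in 2 groups this is a description only.

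The cell type label was checked with marker genes. Kit and Cd34 were measured on all arrays, with log2 signals of 3.50 to 4.12 for Kit and 5.69 to 6.55 for Cd34. Ly6a, which encodes the sort marker Sca1, was higher in Atg5f/f;Vav arrays by 1.57 (adjusted p = 0.00623). Other LSK and stem cell genes differed between the groups. The summed signal of 10 such genes, in multiples of the 75th percentile, was 145.5, 152.1 and 151 in control and 145, 118 and 84.6 in Atg5f/f;Vav arrays, with Cd34 the brightest probe. Of the 10, 4 were lower, led by Mecom, Hlf and Procr (differences of −1.75, −1.65 and −1.56), and 1 was higher. This was 50% of the list, beside 34.1% of all genes (18.7% higher and 15.3% lower). Without control replicate 1 or 2, 0 of the 10 passed as lower and 1 as higher. Of all genes, 78 or 54 were lower and 124 or 108 higher in these fits. Cd3g, Cd8a and Ncr1, defining genes of T and NK cells, and the endothelial gene Cdh5 were well above background on no array, and C1qa and C1qc were too dim to be tested. Other genes of the T and NK cell list were detected. Cd3e and Cd4 were well above background on all 6 arrays, and Klrb1c on 3 control and 0 Atg5f/f;Vav arrays. In sorted bulk RNA, fewer cells of a type and less RNA per cell cannot be told apart.

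Markers of other cells moved with genotype or stood apart on single arrays. Of 8 erythroid genes 4 were higher and 3 lower (87.5%), beside 34.1% of all genes (18.7% higher and 15.3% lower). Without control replicate 1 or 2, 0 of the 8 passed. Hba-a1, the brightest probe, read 8.90, 8.84 and 7.72 in control and 6.00, 6.42 and 6.28 in Atg5f/f;Vav arrays, while Gata1 and Klf1, regulators of erythroid progenitors, rose by 3.001 and 2.95. The summed erythroid signal was 707.1, 647.6 and 347.9 in control and 150.8, 194.9 and 205 in Atg5f/f;Vav arrays. For 9 neutrophil and myeloid progenitor genes (4 higher, 4 lower, brightest Mpo) the sums were 139.7, 135.3 and 224.3 against 264.5, 221.3 and 274.8. Erythroid sums were thus lower in all Atg5f/f;Vav arrays, and these myeloid sums overlapped between the groups. For 5 mast cell and basophil genes (2 higher, 1 lower, brightest Cpa3) they were 3.85, 2.10 and 6.06 against 4.33, 4.32 and 5.18. Cpa3, which makes up much of these sums, did not pass (difference −0.30, adjusted p = 0.569), whereas 2 dimmer genes of the list were far apart between the groups. Ms4a2, for a subunit of the IgE receptor, read −3.31, −4.06 and −3.26 in control and −0.99, −0.70 and −0.077 in Atg5f/f;Vav arrays (difference 2.96, adjusted p = 0.00689). Gzmb, for granzyme B, which cytotoxic lymphocytes also make, was not well above background on any control array. Against the detection limit it was at least 11.7-fold higher in Atg5f/f;Vav arrays. It reached the test only through those arrays, so its call is not read as a result. Prss34, for a basophil protease, differed by −1.25 (adjusted p = 0.0189). Of the 5, 2 were still called without control replicate 1 and without control replicate 2. The counts of this list include Gzmb among the genes tested. For 5 megakaryocyte genes (2 higher, 2 lower, brightest Gp9) the sums were 7.47, 6.43 and 6.09 against 6.00, 5.77 and 6.17. Control arrays were not alike in stromal genes. Col1a1 read −4.14, 3.23 and 2.95 in control and −5.23, −5.16 and −5.49 in Atg5f/f;Vav arrays, none of them well above background, and the summed signal of 6 tested stromal genes (brightest Lepr) was 10.2, 40.7 and 30.6 against 6.83, 9.61 and 9.51. B cell genes summed to 11.9, 9.19 and 12.3 against 17.9, 10.7 and 10.9 (1 of 7 higher, brightest Cd79b), macrophage genes to 4.82 to 6.38 against 6.55 to 6.67 (1 of 5 tested lower, brightest Csf1r), and T and NK cell genes to 2.37 to 3.20 against 2.34 to 2.85 (none of 3 tested passed, brightest Cd4). Without control replicate 1 or 2, 0 of the neutrophil and myeloid progenitor, 0 of the megakaryocyte and 0 of the B cell genes passed. In both fits 1 macrophage gene passed as lower, and 3 stromal genes passed in the first and 0 in the second. Of all genes, 202 or 162 passed in these fits. The part of these other cells in the differences of the conjugation genes was not tested. The Atg5 difference was 0.57 without control replicate 1, 0.49 without replicate 2 and 0.56 without replicate 3.

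Of all probes on the array, the percentage detected above background was 58.2%, 57.6% and 58.1% in control and 54.8%, 53.9% and 51.6% in Atg5f/f;Vav arrays, lower on all 3 of the latter, and its part in the differences was not tested.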

How the data were processed

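RNA of sorted LSK cells was measured on 6 arrays, and groups follow the sample labels. For every spot the authors deposited an intensity that Agilent Feature Extraction 12.0.3.1 had corrected for background (per the file headers), with mm9 probe positions. They also deposited a table of normalised signal on a linear scale, which here equalled each array's intensity divided by about its 75th percentile.

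Intensity of spots that are not controls was divided by the array's 75th percentile and put on the log2 scale. The deposited files hold no log2 values. Outlier spots were left out (64 to 81 per array), no spot was saturated, and spots of a probe were averaged. The test was limma's moderated linear model (version 3.58.1, R 4.3.3, 2-sided, Benjamini-Hochberg) on probes well above background on at least 3 arrays. Where a gene had several probes, the brightest stood for it. The genes and lists were chosen with earlier results of these data known. Named are the 10 genes, at most 3 genes each way of other lists by size among those past the threshold, defining markers not above background, and the 5 genes most like Atg5. Others named (markers used to check the label, the brightest marker of a list, genes or probes beside which a count is read) were chosen after their values were seen. Alternatives were normexp (offset 50), quantile normalisation, scaling on detected probes, the deposited table, other filters, an intensity trend, other probes of related genes (added after the data were seen), the replicate number as a block, the methods' t-test, and each array left out. Slide and scan were common to all arrays and could not be fitted as blocks. Deviations of same-numbered arrays of the groups were weakly related at most (Pearson's r over probes −0.065, 0.189 and 0.111). Differently numbered arrays gave −0.301 to 0.132, and nothing in the labels pairs the arrays. The tests were checked on simulated data. The number of arrays limits the precision.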

Additional observations from a re-analysis of the deposited data

How the results depend on the processing

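Among the 18 tested probes of the conjugation genes, direction held in every setting that tested them for all but 3, none of which passed as reported. Quantile normalisation turned Atg16l1 at base 1474 to 0.0036 and Atg4b at base 2766 to −0.023, and scaling on detected probes, which lowers every difference alike (median −0.157), put the latter at −0.066 and Atg4a at −0.042. The number of these probes that passed was 2 as reported. It was 7 with normexp (38.9%, beside 35.9% of all probes), 7 with an intensity trend (38.9%, beside 38.0%), 6 with scaling on detected probes (33.3%, beside 39.4%), 5 of 17 with probes well above background on all 6 arrays (29.4%, beside 38.1%), 4 with quantile normalisation (22.2%, beside 26.2%), 3 with the replicate block (16.7%, beside 31.7%), 2 with the deposited table (11.1%, beside 34.2%) and 0 with the methods' t-test. With no filter on dim probes none of the 18 passed. The 1 of 19 that did was Atg16l2 at base 149, which is not above background on any Atg5f/f;Vav array, so its call is not read. With 1 array left out the number that passed was 0 to 5. The methods' t-test gave an unadjusted p under 0.05 for 7 of the 18 (5 higher, 2 lower) and for 13541 of all probes.

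On the whole array the number that passed was 11024 as reported, 10173 with the replicate block, 4538 with no filter and 0 with the methods' t-test (smallest adjusted p 0.0506), and 251 to 10304 with 1 array left out, lowest without control replicate 2 (251) and control replicate 1 (330). The block changed no call of Atg5 or Atg4b and added Atg3 (difference 0.42, adjusted p = 0.0385 in limma). The median difference of the 10 genes, −0.015, was 0.11 when the probes of a gene were averaged. Scaling on detected probes put it at −0.17, with the distance from all genes unchanged (0.016), and moved the medians of all lists by the same amount. Quantile normalisation put the median of the ATG9, ATG2 and WIPI list at −0.081 in place of 0.016, that of SUMO at 0.070 in place of 0.43, that of NEDD8 at 0.20 in place of 0.47 and that of the ATG8 proteins at −0.19 in place of −0.017. It also moved the shift of Atg4a minus Atg4b from 0.024 to 0.22 and turned those of Atg4a minus Atg4d to 0.097 and of Atg16l1 minus Atg16l2 to −0.13. Where no construction is named, the causes were not tested. No conclusion is drawn from probes near background, such as those of Atg16l2 at base 149 and Atg16l1 at base 1474.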
